A study of Mus musculus with 27 samples.

Results

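The alpha-arrestins are arrestin-fold proteins that act as adaptors between membrane proteins and ubiquitin ligases of the Nedd4 family. The mouse members described here are Txnip, Arrdc1, Arrdc2, Arrdc3 and Arrdc4, 5 genes of the 35527 gene names on the array. They were found by their gene name in the array files and were chosen from earlier results of these data, since Arrdc2 and Txnip lay far lower in Smn1deltaSKM than in WT myofibers. The values that chose them are therefore given as a description, without a test.

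Txnip, the thioredoxin-interacting protein, binds reduced thioredoxin, restrains glucose uptake by drawing glucose transporters from the cell surface, and is transcribed in response to glucose through the Mondo transcription factors and their partner Mlx. Arrdc4 is a relative that is also known as a glucose-responsive gene. Arrdc3 is known as an adaptor for membrane proteins such as the integrin Itgb4, Arrdc1 for the budding of vesicles from the plasma membrane with Tsg101, and Arrdc2 is the least studied of the family.

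The study profiled 27 single tibialis anterior myofibers of male mice, 1 myofiber per 1-colour array, after amplification of its RNA. The WT group held 8 myofibers from 2 wild type mice. Smn1deltaSKM held 12 myofibers from 3 mice in which HSA-Cre, driven by a skeletal actin promoter, acts on the floxed Smn F7 alleles in muscle fibers, so other cells of these mice keep the gene. Smn1deltaSKM+AFS held 7 myofibers from 2 mice of the same knockout that had received amniotic fluid stem (AFS) cells, expanded in culture, sorted for GFP and c-kit and injected into the tail vein. The labels give an age of 3 months for all mice, whereas by the methods the cells were given at 3 months and the myofibers were taken 1 month later. The comparisons ask how the loss of Smn1 in muscle, and the cells given afterwards, bear on the expression of these genes in a muscle fiber.

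A level below is the log2 signal of a probe minus the 75th percentile of its array, so that a level of 0 lies at that percentile, and a difference of 1 is a 2-fold change. A spot that was not found by the scanner software, not well above background or marked uneven gave no value, so a missing value does not by itself mean a signal at background. Between 23864 and 34001 probes had a value on a WT array (median 25147.5), between 23170 and 37580 on a Smn1deltaSKM array (31411) and between 25868 and 30478 on a Smn1deltaSKM+AFS array (27412). Precision is limited by the number of mice, 2 in WT, 3 in Smn1deltaSKM and 2 in Smn1deltaSKM+AFS. The WT arrays shared a single slide with its own scan day, so slide, scan day and genotype cannot be told apart in any comparison with WT. The other groups shared scan days 1 and 2. Smn1deltaSKM lay on slides 1, 3 and 4 and Smn1deltaSKM+AFS on slides 2, 3 and 5. Slide and treatment can thus hardly be told apart between them. Of the pair of Smn1 probes, A_55_P2048848 averaged 1.85 in WT, 0.16 in Smn1deltaSKM and 0.24 in Smn1deltaSKM+AFS, and A_55_P2048560 averaged 2.40, 2.59 and 2.79. The summed level of the 14 myofiber markers ran from 11.4 to 12.2 in WT, with a median of 11.9. It ran from 10.9 to 11.6 in Smn1deltaSKM (median 11.3) and from 11.5 to 11.9 in Smn1deltaSKM+AFS (11.6), so it was lower in Smn1deltaSKM. Single markers such as Mylpf, with median signals of 5.73, 3.52 and 3.98, and Ckm, with 8.32, 6.73 and 7.17, were lower too. The fast myosin Myh1 of the same list went the other way, with 1.61, 3.47 and 6.83. Summed fibroblast markers ran from -0.32 to 6.86 in WT, from 0.61 to 5.11 in Smn1deltaSKM and from 0.96 to 4.50 in Smn1deltaSKM+AFS. Their medians were 1.20, 3.51 and 3.91 in that order, higher in both knockout groups. Of the defining markers, Pdgfra of fibroblasts and Myf5 of satellite cells had no value on any array. Dcn, a fibroblast marker, had a value on 1 of 8 WT, 12 of 12 Smn1deltaSKM and 5 of 7 Smn1deltaSKM+AFS arrays. Cd68, a macrophage marker, had a median signal of -1.38, 1.74 and 2.40 in that order. Of the other immune markers, Ptprc (-1.51, 0.019 and -0.23) and Emr1 (-3.25, -2.51 and -2.82) were also higher in both knockout groups. Csf1r (4.68, 4.22 and 4.33) and Lyz2 (-1.88, -2.46 and -2.44) were lower, and Itgam read 7.85, 7.70 and 7.95. The summed immune level had medians of 8.00, 7.86 and 8.09. The part of these markers in the levels below was not tested.

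The array carries 9 probes for the family, each of 60 bases, and the stretches below are shown because the results rest on pairs of probes of which 1 pair measures separate places of a transcript and the other nearly the same place. The Txnip probes start 941 bases apart in the genome, at chr3:96364206-96364265 and chr3:96365147-96365206 on the plus strand (mm9). The Arrdc2 probes, at chr8:73359065-73359124 and chr8:73359054-73359113 on the minus strand, are offset by 11 bases and share 49, of which 19 stand in capitals in each line. The position of a probe within exons or UTRs was not determined here.
Txnip, brighter probe, first 30 bases: tggacgactctcaagacagccctatcttta
Txnip, dimmer probe, first 30 bases: ctaaggtgatgttcttagcactttagcttg
Arrdc2, brighter probe, first 30 bases: tcccccacatcCCAGACCTGCCAGGGACTT
Arrdc2, dimmer probe, last 30 bases: GGTCTGAAGAATTGTTCACttttatatatt

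The promoters of Txnip and Arrdc2 are shown because these members lay lower together in Smn1deltaSKM while their deviations within a mouse did not follow each other. All 5 members had a promoter in the RefSeq table (GRCm38.p6), and the 250 bases before the start site are printed, at chr3:96557707-96557956 on the plus strand for Txnip and chr8:70839721-70839970 on the minus strand for Arrdc2. Capitals mark matches to the motifs searched on both strands: the E-box CACGTG, a carbohydrate response pair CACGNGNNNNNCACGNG, the FoxO motif GTAAACA, the glucocorticoid response element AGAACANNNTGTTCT, and CCAAT.
Txnip promoter: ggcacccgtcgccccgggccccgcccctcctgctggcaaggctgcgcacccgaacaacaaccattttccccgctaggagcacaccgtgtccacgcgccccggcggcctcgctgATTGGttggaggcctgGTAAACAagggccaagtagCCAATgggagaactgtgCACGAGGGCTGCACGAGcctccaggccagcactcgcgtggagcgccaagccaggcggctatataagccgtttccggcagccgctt
Arrdc2 promoter: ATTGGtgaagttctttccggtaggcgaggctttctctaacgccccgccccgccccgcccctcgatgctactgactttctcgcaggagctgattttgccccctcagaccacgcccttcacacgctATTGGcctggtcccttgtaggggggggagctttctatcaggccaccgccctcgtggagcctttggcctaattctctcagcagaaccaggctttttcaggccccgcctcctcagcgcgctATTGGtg

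The Txnip window held 1 carbohydrate response pair, 85 bases before the start, 1 FoxO match, 121 bases before it, and 2 CCAAT matches. The letters of the pair were chosen knowing this element of Txnip, and 15 of 32851 promoters (0.0457%) held it. The FoxO letters were in 3.17% of promoters and CCAAT in 33.8%. The Arrdc2 window held 3 CCAAT matches and none of the other motifs. Among the other members, the E-box, found in 6.02% of promoters, was matched only in Arrdc4, 193 bases before the start, beside 6 CCAAT matches. Arrdc3 held a CCAAT match in 2 of its 3 listed windows and Arrdc1 held none of the motifs. No member held the glucocorticoid element, which 0.00913% of promoters held. A match describes these letters and not a site in use.

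Of the 9 probes, 6 had values on at least 75% of the 27 arrays and entered the fit over 22154 probes: both of Txnip, both of Arrdc2, the brighter of Arrdc1 and the only probe of Arrdc3. A probe could reach that share only with values in all 3 groups. The other 3, described by their values, were the dimmer Arrdc1 probe with values on 17 arrays and the Arrdc4 probes with 17 and 1.

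Txnip was high in every WT myofiber, lower in every Smn1deltaSKM myofiber and spread over the ranges of both in those from treated mice. Its brighter probe lay between 5.69 and 6.91 in WT, with a median of 6.30. In Smn1deltaSKM it lay between 1.32 and 5.62 with a median of 3.20, and in Smn1deltaSKM+AFS between 1.53 and 6.27 with a median of 4.41. All 12 Smn1deltaSKM myofibers were below the lowest WT myofiber, although the highest of them came within 0.065 of it. Of the 7 treated myofibers, 5 were below the lowest WT myofiber and 2 above the highest Smn1deltaSKM myofiber.

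By mouse, the brighter Txnip probe averaged 6.26 and 6.35 in WT, 2.81, 3.22 and 4.26 in Smn1deltaSKM, and 4.11 and 5.16 in Smn1deltaSKM+AFS. The WT mice lay close together, and the treated mice lay between the WT mice and the untreated knockout mice except that the lower of them, at 4.11, lay under the highest Smn1deltaSKM mouse. The group means were 6.30 ± 0.059 in WT (SD, n = 2 mice), 3.43 ± 0.75 in Smn1deltaSKM (SD, n = 3) and 4.63 ± 0.74 in Smn1deltaSKM+AFS (SD, n = 2). Smn1deltaSKM minus WT was -2.87 with a standard error of 0.474 and a 95% interval from -3.96 to -1.79, or 7.33-fold lower.

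The dimmer Txnip probe, which reads another place of the transcript, gave the same order. It lay between 2.76 and 4.39 in WT (median 3.67), between -2.56 and 2.68 in Smn1deltaSKM (1.01) and between -1.81 and 3.51 in Smn1deltaSKM+AFS (2.45). Again all 12 Smn1deltaSKM myofibers were below every WT myofiber, by at least 0.077, and 4 of 7 treated myofibers were. The group means of 3.59 ± 0.54 (SD, n = 2 mice), 0.36 ± 0.54 (SD, n = 3) and 1.87 ± 0.98 (SD, n = 2) followed that order. Smn1deltaSKM minus WT was -3.23 with a standard error of 0.490, or 9.41-fold lower.

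**Figure D1:**
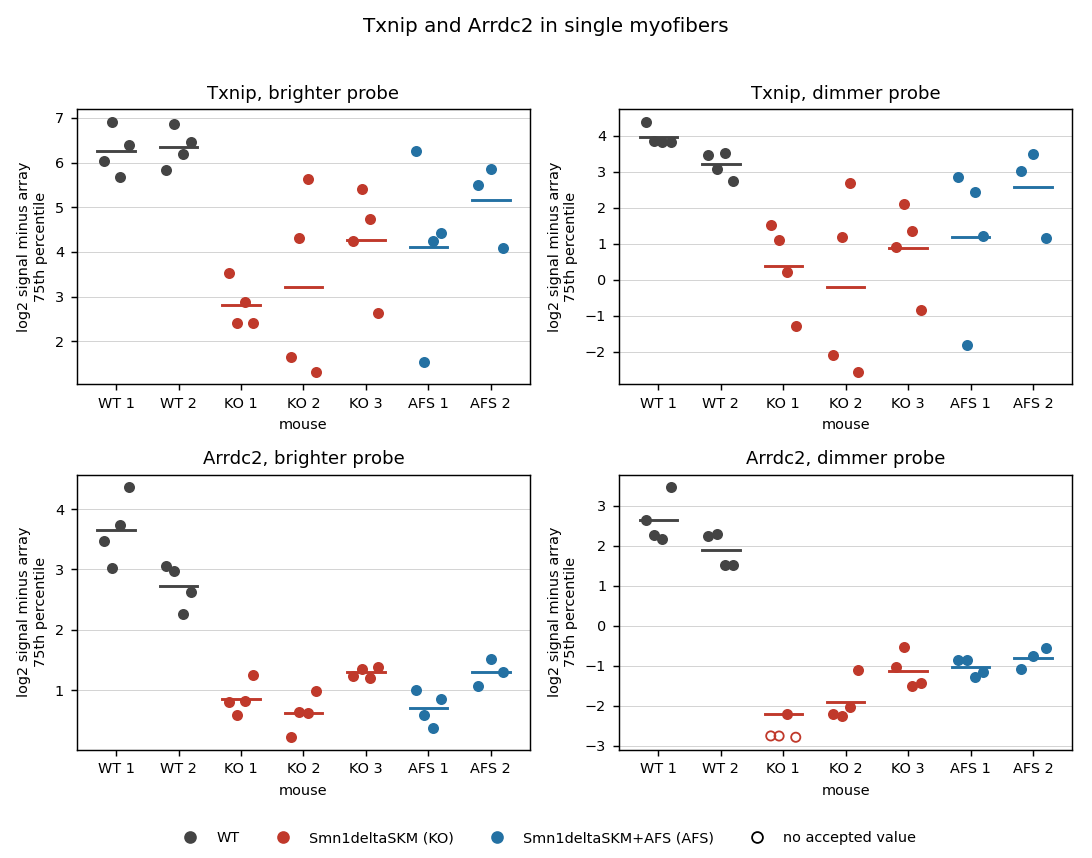
Level (log2 signal minus the 75th percentile of the array) of the Txnip and Arrdc2 probes, 1 point per myofiber and 1 column per mouse, with a line at the mean of the accepted values of a mouse. Open points, without an accepted value, are drawn at their measured signal and enter no mean. The WT myofibers sit above all 12 Smn1deltaSKM myofibers for both Txnip probes and the brighter Arrdc2 probe, and Smn1deltaSKM mouse 2 spans from 1.32 to 5.62 for the brighter Txnip probe.

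Arrdc2 separated the groups more sharply. Its brighter probe lay between 2.26 and 4.36 in WT with a median of 3.04, between 0.22 and 1.39 in Smn1deltaSKM with a median of 0.90, and between 0.38 and 1.52 in Smn1deltaSKM+AFS with a median of 1.01. No myofiber of either knockout group reached the lowest WT myofiber, from which the highest Smn1deltaSKM myofiber was 0.87 and the highest treated myofiber 0.74 away. The mouse means were 3.65 and 2.73 in WT, 0.86, 0.62 and 1.30 in Smn1deltaSKM, and 0.71 and 1.30 in Smn1deltaSKM+AFS. The treated and untreated knockout mice overlapped. Smn1deltaSKM minus WT was -2.27 with a standard error of 0.376, or 4.81-fold lower.

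The dimmer Arrdc2 probe lay between 1.51 and 3.46 in WT (median 2.26) and between -1.29 and -0.57 in Smn1deltaSKM+AFS (-0.87). In Smn1deltaSKM it had values on 9 of 12 arrays, between -2.25 and -0.53 (-1.51), and the 3 arrays without an accepted value were all of mouse 1, which is represented by a single myofiber. Every accepted knockout value was thus at least 2.05 below the lowest WT value. The mouse means were 2.63 and 1.89 in WT, -2.21, -1.90 and -1.13 in Smn1deltaSKM, and -1.05 and -0.81 in Smn1deltaSKM+AFS, so that at this probe both treated mice lay above the 3 untreated knockout mice. The difference Smn1deltaSKM minus WT was -4.01 with a standard error of 0.388, or 16.1-fold lower, and it was -4.15 with the measured signal kept on every array. The pair of Arrdc2 probes share most of their bases and are not separate measurements of the gene.

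Arrdc1 showed no such separation at its brighter probe, which lay between 0.70 and 3.04 in WT (median 1.96), between 1.35 and 2.82 in Smn1deltaSKM (2.09) and between 1.75 and 2.88 in Smn1deltaSKM+AFS (1.98). The groups overlapped throughout. Smn1deltaSKM minus WT was 0.016 with a 95% interval from -0.65 to 0.68, which spans changes of either sign up to these bounds. The dimmer Arrdc1 probe, designed on another transcript of the gene (chr2:24782434-24782493 against chr2:24780875-24780934, minus strand, mm9), lay apart. It had values on 8 of 8 WT arrays, between -2.27 and 0.70, on 8 of 12 Smn1deltaSKM arrays, between -2.67 and -0.72, and on 1 of 7 Smn1deltaSKM+AFS arrays, at -2.64. The mouse means of its accepted values, -0.18 and -0.89 in WT against -1.46, -1.73 and -2.02 in Smn1deltaSKM, did not overlap, while single myofibers did, 2 of the 8 accepted Smn1deltaSKM values lying below the lowest WT value. The Smn1deltaSKM arrays left out carried lower signals, down to -4.46. The probes of Arrdc1 thus disagreed.

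Arrdc3 differed more between mice than between groups. Its probe (chr13:81034981-81035040, plus strand, mm9) averaged 0.68 and -0.44 in the WT mice, -1.56, 0.90 and -0.67 in the Smn1deltaSKM mice and 0.41 and -0.17 in the Smn1deltaSKM+AFS mice. The Smn1deltaSKM mice enclosed all the others. Within a mouse the accepted values spanned between 0.085 and 1.33, and myofiber 4 of Smn1deltaSKM mouse 1 had no accepted value, with a signal of -3.76 below its mates at -1.91 to -1.28. Smn1deltaSKM minus WT was -0.56 with a 95% interval from -2.09 to 0.97. It ran from -1.23 to 0.00057 as mice were left out in turn.

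Arrdc4 was accepted on few knockout arrays. Its brighter probe had values on 7 of 8 WT arrays, between -2.15 and -0.31, on 7 of 12 Smn1deltaSKM arrays, between -1.79 and -0.96, and on 3 of 7 Smn1deltaSKM+AFS arrays, between -1.31 and 0.40. The groups overlapped. The spot was well above background on 24 of 27 arrays, and 7 of the 10 arrays without a value, 4 of Smn1deltaSKM and 3 of Smn1deltaSKM+AFS, lacked it because the spot was not found. Its dimmer probe, spotted 10 times, had a value on 1 WT array only, at -2.42, and was not well above background on any knockout array.

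Over the 6 probes that entered the fit, every Smn1deltaSKM mouse lay below both WT mice for 4, those of Txnip and Arrdc2. Such a placing was found for 33.9% of the 21984 probes with a value in every mouse, and since this contrast chose the members nothing is read from it. The median difference over all 22154 probes was -0.14. It was 0.077 when the arrays were centred on the median of the probes with values everywhere, which moves all probes of an array alike.

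**Figure D2:**
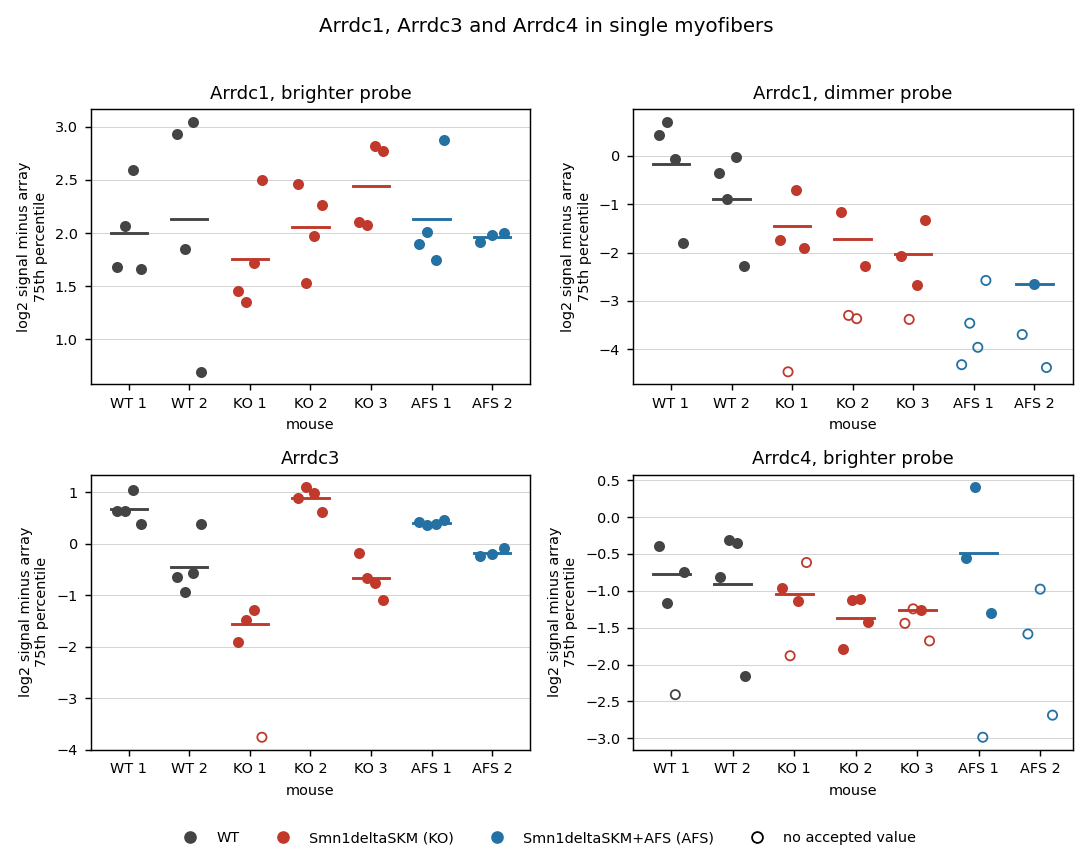
Level (log2 signal minus the 75th percentile of the array) of the Arrdc1, Arrdc3 and brighter Arrdc4 probes, 1 point per myofiber and 1 column per mouse, with a line at the mean of the accepted values of a mouse. Open points have no accepted value and are drawn at their measured signal. The myofibers of the groups overlap in the panels of the brighter Arrdc1, the Arrdc3 and the brighter Arrdc4 probes. At the dimmer Arrdc1 probe, where the WT mice average -0.18 and -0.89, only 1 of 7 Smn1deltaSKM+AFS myofibers has an accepted value. There the highest Smn1deltaSKM+AFS signal, -2.58, lies under the lowest WT value, -2.27.

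The treated mice were not used to choose the members, but they are compared here with the same knockout or WT mice that were. Choosing Txnip and Arrdc2 favours low Smn1deltaSKM and high WT values. It can raise their differences from Smn1deltaSKM and lower those from WT, and the intervals and p-values below do not allow for it. Against untreated Smn1deltaSKM, Txnip was 1.20 higher at the brighter probe (95% interval from 0.12 to 2.29, 2.30-fold) and 1.52 higher at the dimmer probe (from 0.40 to 2.64, 2.86-fold). Adjusted over all probes by limma, neither passed, with an adjusted p of 1.00 and an unadjusted p of 0.0334 and 0.0139. The fit called 0% of 22154 probes lower and 0% higher in this comparison, 713 having an unadjusted p under 0.05, and over genes at their brightest probe it likewise called 0% in each direction.

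Within scan days the Txnip difference was uneven. On day 1, with 1 mouse a group and so no test, Smn1deltaSKM+AFS minus Smn1deltaSKM was -0.055 at the brighter probe and -0.63 at the dimmer probe. On day 2 it was 1.95 and 2.51 (limma, adjusted p = 0.928 for both), and with scan day as a fixed block it was 1.34 and 1.66. The day 1 value rests on 2 treated myofibers, at 4.24 and 1.53 for the brighter probe, of which the first lay above the 3 Smn1deltaSKM myofibers of that day (highest 3.52) and the other below them.

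Arrdc2 gave another picture in the same comparison. The difference was 0.079 at the brighter probe, with a 95% interval from -0.78 to 0.94, and 0.82 at the dimmer probe, from -0.069 to 1.71. Neither passed (limma, adjusted p = 1.00 for both, unadjusted p = 0.838 and 0.0662). Arrdc1 differed by -0.034 (from -0.70 to 0.63) and Arrdc3 by 0.56 (from -0.96 to 2.09), also without a call (limma, adjusted p = 1.00 for both). Each of these intervals spans changes of either sign up to its bounds.

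Against WT, Arrdc2 was lower in the treated mice. Smn1deltaSKM+AFS minus WT was -2.19 at the brighter probe (4.55-fold lower, standard error 0.412, adjusted p = 0.0272 by limma), and -3.19 at the dimmer probe (9.12-fold lower, standard error 0.425, adjusted p = 0.0151 by limma). The WT values used here also chose Arrdc2 and Txnip, and the p-values of both genes against WT do not allow for that choice. All 7 treated myofibers and both treated mice lay below every WT value of Arrdc2. Both calls were lost without either WT mouse or either treated mouse, with adjusted p-values up to 0.223 and 0.180, while the difference stayed between -2.65 and -1.73 at the brighter probe over its alternatives.

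Txnip was lower by -1.67 (standard error 0.519) at the brighter probe (limma, adjusted p = 0.0817) and by -1.72 (standard error 0.537) at the dimmer probe (limma, adjusted p = 0.0829), so neither passed. Without Smn1deltaSKM mouse 1, which enters only through the spread, both passed. Arrdc1 differed by -0.018 (from -0.75 to 0.71, limma, adjusted p = 0.977) and Arrdc3 by 0.0025 (from -1.67 to 1.68, adjusted p = 0.999). Of the 6 probes 2 were called lower, where the fit called 4.35% of all probes lower, and both treated mice lay below both WT mice for 4 of the 6, where 37.0% of all probes did. Since the WT values used here also chose the members, nothing is read from these counts. The order of the group means for Txnip was WT, Smn1deltaSKM+AFS and Smn1deltaSKM, in which neither step to a neighbour passed for the treated mice. For Arrdc2, WT stood above Smn1deltaSKM+AFS and Smn1deltaSKM, between which neither probe passed the test.

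**Figure D3:**
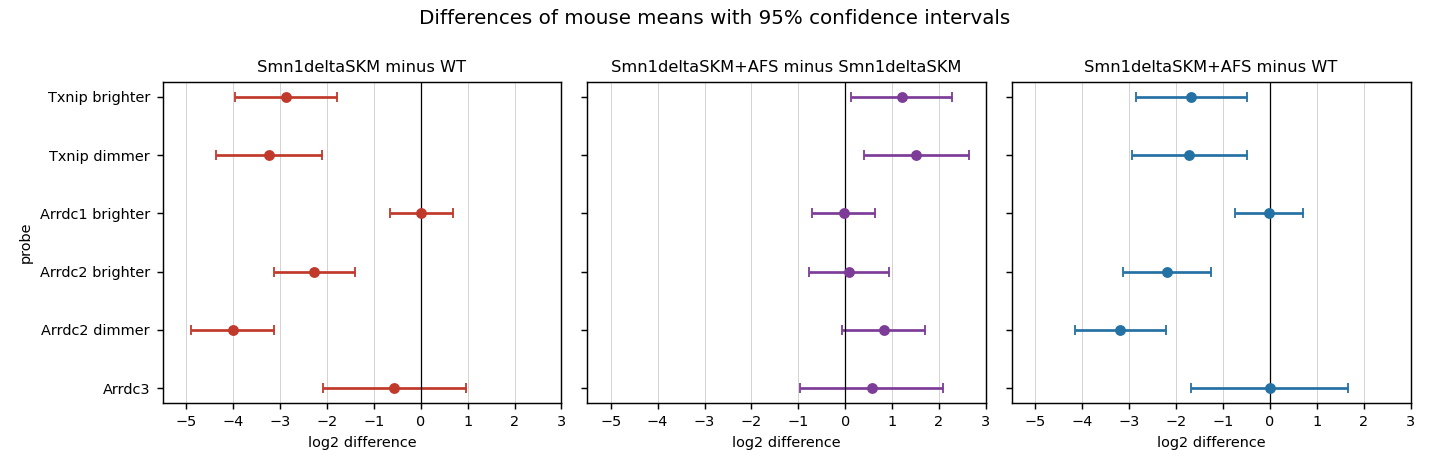
Differences of group means over mice in log2 units (points) with 95% confidence intervals from the limma fit (bars) for the 6 probes that entered it, 1 panel per comparison. The Smn1deltaSKM minus WT panel chose the members and is a description. The brighter and dimmer Arrdc2 probes lie at 0.079 and 0.82 in the middle panel and at -2.19 and -3.19 in the right panel. Txnip lies at 1.20 and 1.52 in the middle panel.

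Txnip varied widely between myofibers of some knockout mice. In Smn1deltaSKM mouse 2 the brighter probe read 1.65, 4.31, 5.62 and 1.32, and in Smn1deltaSKM+AFS mouse 1 it read 6.27, 1.53, 4.24 and 4.41. These mice each held myofibers near the WT level beside myofibers more than 2 log2 units lower, whereas the WT mice spanned 1.22 and 1.03 and Smn1deltaSKM mouse 1, low in all its myofibers, 1.10. Smn1deltaSKM mouse 3 spanned 2.76 and Smn1deltaSKM+AFS mouse 2 spanned 1.76. At the dimmer probe Smn1deltaSKM mouse 1 spanned 2.83, and the WT mice 0.57 and 0.76. The standard deviation within mice was 0.48 in WT, 1.42 in Smn1deltaSKM and 1.62 in Smn1deltaSKM+AFS, and 1.28 over all mice, above that of 99.2% of the 22154 probes, whose median was 0.447. The dimmer probe gave 0.32, 1.79 and 1.82, and 1.51 over all mice. No test was made of these spreads.

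The other members varied less within mice. The brighter Arrdc2 probe had a standard deviation of 0.33 within mice, above that of 18.8% of probes, with 0.47 in WT, 0.25 in Smn1deltaSKM and 0.26 in Smn1deltaSKM+AFS. Arrdc3 was at 0.33 and the brighter Arrdc1 probe at 0.58. The dimmer Arrdc2 probe was at 0.45, above that of 49.6% of probes, with 0.52 in WT, 0.50 in Smn1deltaSKM and 0.24 in Smn1deltaSKM+AFS. So the low Arrdc2 levels varied little within a mouse at both probes in Smn1deltaSKM+AFS, and at the brighter probe only in Smn1deltaSKM. The Txnip levels varied more than those of either Arrdc2 probe.

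Correlations over the 27 myofibers, which share mice, groups and slides, describe this further. The Txnip probes followed each other with r = 0.93 on the levels and 0.90 on the deviations from the mouse means. The brighter Txnip and Arrdc2 probes had r = 0.66 on the levels and 0.053 on the deviations. The former restates that both were chosen for lying lower in Smn1deltaSKM. Arrdc1 and Arrdc3 had no clear relation with Txnip (r = -0.10 and 0.14 on the levels). The deviations of Txnip had r = 0.40 with those of Myh1 and -0.18 with those of Myh4, myosins of fast fibers, and -0.28 with the number of probes with values on the array, whose part was not tested.

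**Figure D4:**
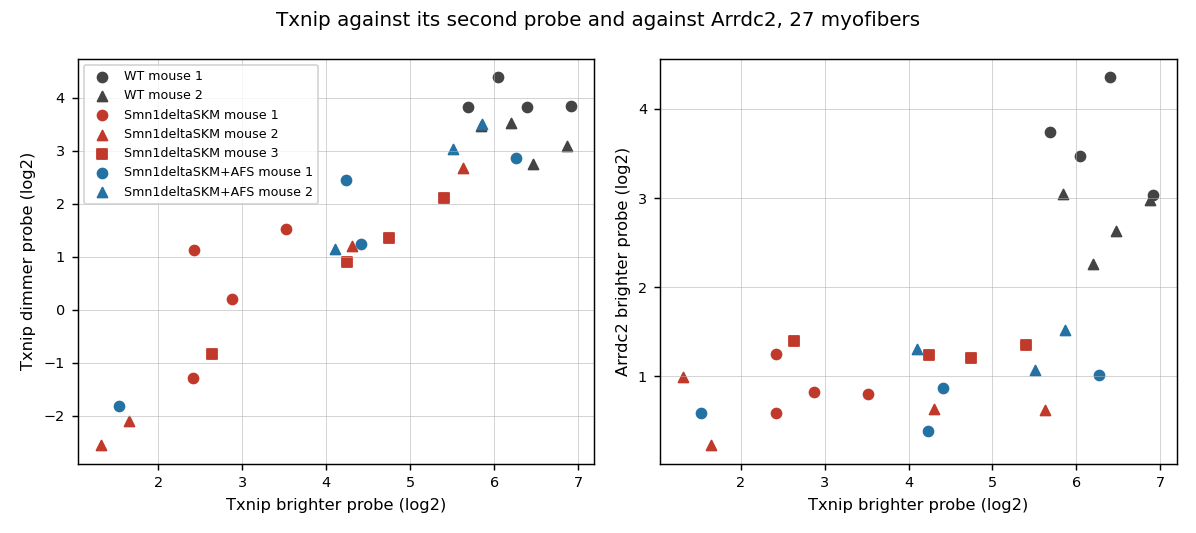
Brighter Txnip probe against the dimmer Txnip probe (left) and against the brighter Arrdc2 probe (right), both axes as log2 signal minus the 75th percentile of the array, 1 point per myofiber, with colours for the groups and marker shapes for the mice. The Txnip probes rise together over all 27 myofibers (r = 0.93), while the knockout myofibers spread along the Txnip axis at Arrdc2 levels between 0.22 and 1.52.

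The genes most like the brighter Txnip probe were sought among 6194 genes with values on every array, by Pearson's r over the 27 myofibers. On the levels they included Plin3, a lipid droplet coat protein (r = 0.860), Mrps12 of the mitochondrial ribosome (0.859), Slc25a12, a mitochondrial carrier (0.855), and Carns1, the carnosine synthase (0.845). Plin3 averaged 3.41 in WT, 0.070 in Smn1deltaSKM and 1.55 in Smn1deltaSKM+AFS. On the deviations from the mouse means they were Rhot2, a GTPase of the outer mitochondrial membrane (0.768), Carns1 (0.768), Endog, a mitochondrial nuclease (0.764), Hibadh, an enzyme of valine breakdown (0.756), and Plin3 (0.752). Plin3 and Carns1 stood in both lists.

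For the brighter Arrdc2 probe the genes of highest r on the levels were Nctc1, a non-coding RNA (0.954), Dag1, the dystroglycan precursor (0.916), Ruvbl2, an ATPase of chromatin complexes (0.915), Zfp687, a zinc finger protein (0.913), and Cdkn1b, a cell cycle inhibitor (0.913). Dag1 averaged 5.37 in WT, 2.95 in Smn1deltaSKM and 3.48 in Smn1deltaSKM+AFS, and Cdkn1b 4.43, 2.06 and 1.97. On the deviations they were Pip5kl1 (0.801), 0610039K10Rik (0.755), Pigo (0.754), Hnrnpm (0.752) and Gm6025 (0.747). No gene stood in both Arrdc2 lists.

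The genes around the family were read in 8 lists of 78 genes, of which 67 were tested, each at its brightest probe. Between Smn1deltaSKM and WT, limma called 12 of them lower and 7 higher, where it called 13.5% of 16636 genes lower and 7.83% higher. The median difference of the 67 was -0.41, against -0.11 over all genes. Without either WT mouse no gene of the lists was called. The lists were chosen with earlier results of these data known, so nothing about them is read from these counts or medians.

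In the thioredoxin system, the binding partner of Txnip, 1 of 9 genes tested was called. Glrx3, a glutaredoxin of iron handling, fell by 1.64 (limma, adjusted p = 0.0138), from 3.85 in WT to 2.21. Thioredoxin itself, Txn1, lay at 5.11 in WT and 5.25 in Smn1deltaSKM (difference 0.14, limma, adjusted p = 0.788). The list had a median difference of -0.35.

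Of the Mondo factors and known targets, 1 of 5 tested was called: Pfkfb3, an enzyme that sets the pace of glycolysis, fell by 2.17 (limma, adjusted p = 0.0156). Mlxipl, a Mondo factor, differed by 0.27 (limma, adjusted p = 0.468). Mlxip, the other Mondo factor tested, differed by -0.98, without a call (limma, adjusted p = 0.123). For Mlxip every Smn1deltaSKM mouse lay below both WT mice. Its difference was 0.89 in Smn1deltaSKM+AFS minus Smn1deltaSKM and -0.091 in Smn1deltaSKM+AFS minus WT, also without a call. Of 3 glucose transporters tested, Slc2a1, the basal transporter, rose by 2.71 (limma, adjusted p = 0.0146) and Slc2a8, an intracellular transporter, fell by 1.64 (0.0127). Slc2a4, the insulin-responsive transporter, lay at 6.09 in WT and 4.75 in Smn1deltaSKM, without a call (limma, adjusted p = 0.0732). Every Smn1deltaSKM mouse lay below both WT mice for it, as for 33.9% of the 21984 probes with a value in every mouse.

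Among the ubiquitin ligases that alpha-arrestins recruit, Nedd4 itself fell by 1.69 (limma, adjusted p = 0.0219), the only call of 8 tested. Among other arrestin-fold genes, Vps26a of the retromer fell by 1.40 (limma, adjusted p = 0.0176) and Arr3, the cone arrestin, rose by 1.10 (0.0441), while the beta-arrestin Arrb1 differed by 0.46 (0.381). The cargo and vesicle partners held 5 tested genes and 0 calls, with a median difference of -0.65. Among them, Tsg101 differed by -1.0 (limma, adjusted p = 0.142).

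The AMP-activated kinase, which is known to mark Txnip for degradation, had 3 of 8 genes called lower and 1 higher. The fast-muscle gamma subunit Prkag3 fell by 2.60 (limma, adjusted p = 0.00663), the beta subunit Prkab2 by 2.11 (0.0264) and Prkag1 by 1.27 (0.0334), and Prkag2 rose by 1.79 (0.00850). The gamma subunits thus moved in both directions. Among glucocorticoid- and FoxO-responsive genes, 4 of 24 were called lower and 4 higher, with a median of -0.51. Those of largest difference were the metallothioneins Mt2 (3.46, limma, adjusted p = 0.0160) and Mt1 (1.90, 0.0321), the growth factor receptor inhibitor Errfi1 (2.28, 0.0417), the glucocorticoid receptor cochaperone Fkbp5 (-2.02, 0.0142), the mTOR inhibitor Ddit4 (-1.92, 0.0207) and the muscle ubiquitin ligase Fbxo32 (-1.63, 0.0165). Klf15 (-1.45) and Foxo4 (1.44) were called too.

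**Figure D5:**
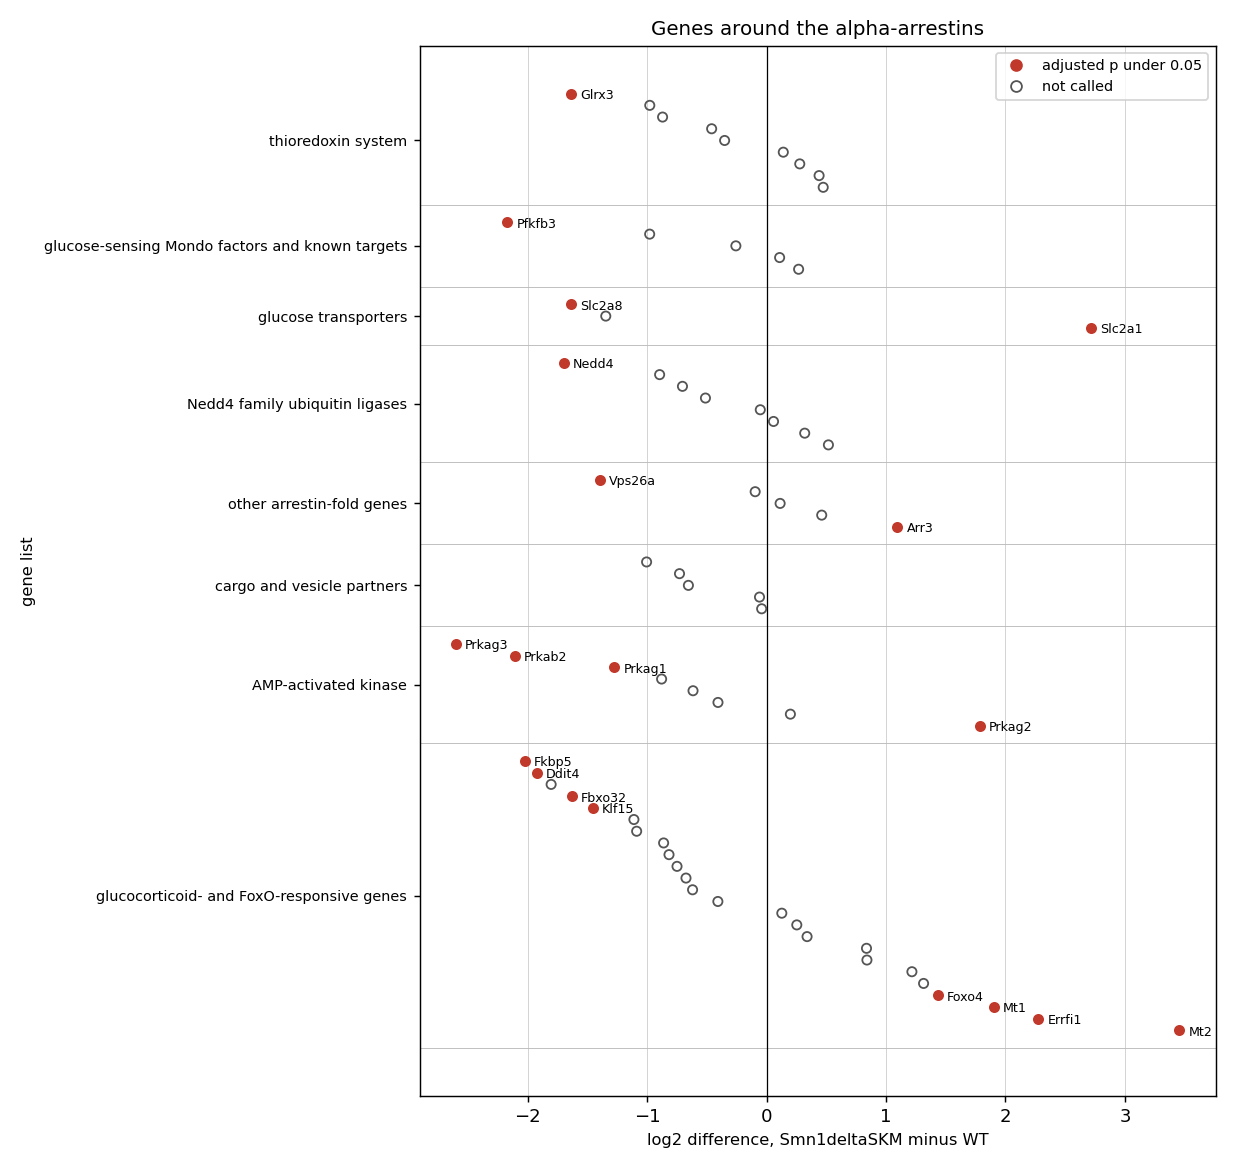
Log2 difference Smn1deltaSKM minus WT for the 67 tested genes of the 8 lists, 1 line per gene and lists separated by lines, with the genes called by limma filled and named. Calls lie on both sides of 0 in 4 of the lists that hold any, and 12 of the 19 are lower.

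In Smn1deltaSKM+AFS minus Smn1deltaSKM, limma called 0 of the 67 genes, with a median difference of 0.17 against 0.058 over all genes, of which 512 had an unadjusted p under 0.05. In Smn1deltaSKM+AFS minus WT it called 8 lower and 3 higher, where 4.02% and 3.29% of all genes were, with a median of -0.17 against -0.045. Those lower were Prkag3 (-2.55, limma, adjusted p = 0.0150), Pfkfb3 (-2.20, 0.0362), Ddit4 (-2.0, 0.0434), Fkbp5 (-1.81, 0.0435), Slc2a8 (-1.81, 0.0245), Fbxo32 (-1.77, 0.0336), Vps26a (-1.48, 0.0365) and Glrx3 (-1.38, 0.0474). Those higher were Mt2 (3.14, 0.0468), Prkag2 (1.52, 0.0267) and Foxo4 (1.12, 0.0494). This comparison shares the WT mice with the one above, and its calls too were lost without either WT mouse or without Smn1deltaSKM+AFS mouse 1. As the lists were chosen with earlier results known, nothing is read from its counts or median beside those of all genes.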

How the data were processed

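The deposited scanner files hold the processed signal intensity of each spot, which the authors obtained with Agilent Feature Extraction 10.7.3.1 (per the submitters' notes), background-subtracted and without scaling across arrays. A value table of the authors, with linear signals of like distribution on each array, was taken to log2 as an alternative. Here log2 intensities were set relative to the 75th percentile of each array, spots not found, not well above background or marked uneven were left out, and spots of a probe were averaged. Of 55681 probes, 22154 with values on 75% of the arrays were kept. Since genotype and treatment belong to the mouse, myofibers were averaged by mouse, and limma 3.58.1 (R 4.3.3) compared mouse means of all 3 groups with 1 shared spread, with Benjamini-Hochberg adjustment over all probes at a threshold of 0.05. The study's test, SAM on myofibers, was not run, and myofibers as replicates are an alternative. The script was tested on simulated data. A listed gene was read at its brightest probe. Named were all probes of the members, from each list the called genes (at most the 6 of largest difference), and the 5 genes of highest r with Txnip and Arrdc2, of which 1 is not reported here. The members and lists were chosen with earlier results of these data known. Alternatives were quantile normalization, normexp (offset 50), the value table, median centring, other filters, blocks for mouse, slide, scan day and replicate number, the median of a mouse's myofibers, and leaving out each mouse. Those for the spread within mice were chosen after seeing the data.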

Additional observations from a re-analysis of the deposited data

Results flagged for a closer look

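Of the 13 groups of 4 to 10 values over the members' probes, 1 held a myofiber far from the others. At the brighter Arrdc1 probe, myofiber 4 of Smn1deltaSKM+AFS mouse 1 read 2.88, where the nearest of the other 6 myofibers read 2.01 and the lowest 1.75, so that the gap to the nearest was 0.771 of the range. Chance marks about 1 in 20 such groups. Its cause was not tested.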

How the results depend on the processing

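The directions of Txnip and Arrdc2 against WT held under all alternatives run, with Smn1deltaSKM minus WT between -3.29 and -2.20 for the brighter Txnip probe and between -2.73 and -1.78 for the brighter Arrdc2 probe. Of the 6 member probes 5 were lower in Smn1deltaSKM, and 3 of the 4 with values on every array. In Smn1deltaSKM+AFS minus WT 2 were called, 1 with values on every array and 4 with myofibers as replicates. Leaving out a mouse gave between 0 and 4. For the lists, the 19 calls of Smn1deltaSKM minus WT became 39 with myofibers as replicates, 12 with slide as a random block and between 0 and 27 without a mouse. The 11 of Smn1deltaSKM+AFS minus WT became 5 with quantile normalization, 7 with normexp, 5 with the authors' value table, 4 with no filter, 30 with myofibers as replicates, 19 with mouse as a random block, 5 with slide as a random block and between 0 and 21 without a mouse. The calls of both comparisons with WT fell to 0 without WT mouse 1 or WT mouse 2, and those of the treated mice to 0 or 1 without a treated mouse. No alternative gave a call for a member or listed gene in Smn1deltaSKM+AFS minus Smn1deltaSKM. The cause of these shifts was not tested.

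Small differences changed sign. Smn1deltaSKM+AFS minus WT for Arrdc1 was 0.12 with quantile normalization, 0.11 with the value table, 0.11 with median centring, 0.054 with slide as a random block, 0.047 without WT mouse 2 and between -0.10 and 0.065 without a mouse, and for Arrdc3 -0.0011, -0.11 with normexp, -0.022 with the value table, -0.29 without Smn1deltaSKM+AFS mouse 1 and between -0.56 and 0.56 without a mouse. Smn1deltaSKM+AFS minus Smn1deltaSKM for the brighter Arrdc2 probe was -0.011 with median centring, -0.094 with slide as a random block, -0.074 without Smn1deltaSKM mouse 2 and between -0.21 and 0.37 without a mouse, and for Arrdc1 0.14 with slide as a random block, 0.15 with the replicate block, 0.049 without Smn1deltaSKM+AFS mouse 2 and between -0.20 and 0.15 without a mouse.

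The mouse numbers do not pair the mice (correlations of same-numbered deviations ran from -0.054 to 0.30). With the number as a replicate block 6 member probes were lower in Smn1deltaSKM, 3 were called in Smn1deltaSKM+AFS minus WT (Txnip with limma's adjusted p = 0.0466) and the lists had 20 and 9 calls. Over all probes, the 4759 calls of Smn1deltaSKM minus WT were 11994 with myofibers as replicates, 7720 with mouse as a random block, 2320 with slide as one, and 3093 with the replicate block. The 1626 of Smn1deltaSKM+AFS minus WT were 841 with quantile normalization, 963 with the value table, 768 with no filter, 2458 with the measured signal kept, 9150 with myofibers as replicates and 4445 with mouse as a random block. Without WT mouse 1 or WT mouse 2 both were 0. Without Smn1deltaSKM mouse 1, 2 or 3 they were 9710, 1891 and 2142, and 6500, 720 and 604. Without Smn1deltaSKM+AFS mouse 1 or 2 the latter was 0 and 107. The SD of Txnip within mice was between 1.07 and 1.37 without a mouse. Scan day could enter as a block or within days only between the knockout groups, since no other group was scanned with WT.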
